A study of Mus musculus with 6 samples.

Results

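Glucose uptake, glycolysis and the pentose phosphate pathway were followed in inguinal white adipose tissue (iWAT) through a list of 30 genes for glucose carriers, glycolytic enzymes, lactate dehydrogenases and pentose phosphate enzymes. Of the 30, 28 have a row of exactly their name among the 19445 gene loci of the deposited table, and these 28 are the members counted here. *Pkm* stands in the table under its older symbol *Pkm2*, and *Tkt* shares 1 row with the microRNA gene *Mir3076* inside it. The values of these 2 rows are given beside the members and are not in their counts. The RNA came from iWAT of 3 *Hlx* transgenic (TG) mice and 3 littermate wild-type (WT) controls, all 12 weeks old and labelled male, with 1 library per mouse. In the TG mice the *Hlx* cDNA was driven by the *aP2* (*Fabp4*) promoter, which is active in fat. The transgene had been injected into embryos of hybrids between C57BL/6 and SJL mice. The lines had then been crossed back to C57BL/6 for 3 generations or more. The text used here does not state which transgenic line was sequenced. The comparison asks how the RNA of these enzymes and carriers differed in iWAT that carried the transgene.

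Glucose enters fat cells through carriers of the GLUT family, of which GLUT4 moves to the cell surface in response to insulin. Hexokinases trap it as glucose-6-phosphate, and glycolysis turns this into pyruvate, with phosphofructokinase-1 as its main control point. The pentose phosphate pathway takes glucose-6-phosphate aside to make NADPH, which fat synthesis uses, and returns sugars to glycolysis. Brown fat is known for a high rate of glucose uptake when it is stimulated.

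Values are FPKM, in which reads are divided by transcript length and library size, so that levels of different genes can be set side by side. This comparison is limited for genes that share sequence with other loci, as described below. The FPKM of a sample summed to between 466059 and 542096. Counts of reads were not used here and the absolute depth is unknown. The steps between low values gave relative depths from 0.693 to 1.41, lowest in TG replicates 3 and 1. The share of low values that lay on such steps was 100% in WT replicate 3. It was 12.5% to 15.3% in the other mice, so these depths are rough. *Hlx* itself had 96.2 ± 15.3 FPKM in TG and 7.45 ± 0.637 FPKM in WT iWAT (SD, n = 3 mice each). *Xist*, an RNA of the inactive X chromosome of females, had between 20.2 and 33.6 FPKM in all 6 samples and 0 of the 28 Y chromosome loci had a value above 0, although the labels give male mice. Both genotypes were alike in this.

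Adipocyte markers were present in every sample, with a summed level between 24005 and 33640 FPKM, and 1 of the 7 tested was lower in TG iWAT. Of 7 brown or beige fat markers tested, 6 were higher, and their sum was 6127 to 7930 FPKM in TG against 611 to 1051 FPKM in WT mice. Macrophage markers summed to 360 to 513 FPKM in TG and 756 to 958 FPKM in WT mice, and 4 of 8 were lower. Skeletal muscle markers summed to 82.4, 612 and 122 FPKM in TG replicates 1, 2 and 3 and to 8.81, 127 and 38 FPKM in the WT mice, with 0 of 9 called by limma and 1 at an unadjusted p under 0.05. Of the other lists, 1 of 7 lymphocyte markers was lower, 2 of 6 endothelial markers and the 1 erythroid marker tested were higher, and 0 of 4 neutrophil and 0 of 7 epithelial markers were called (2 and 1 at an unadjusted p under 0.05). In whole tissue, fewer cells of a type and less RNA per cell cannot be told apart.

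Most enzymes of the glycolytic trunk, from phosphoglucose isomerase to enolase, and all 3 enzymes of the oxidative pentose phosphate branch were higher in TG than in WT iWAT. Genotypes were compared by limma after the log2(FPKM + 1) transform. P-values were adjusted by Benjamini-Hochberg over the 11692 loci whose mean in either genotype exceeded 1 FPKM, and a gene was called at an adjusted p under 0.05. Of the 28 members, all of which were tested, 14 (50%) were called higher and 0 were called lower. With the filter set on the mean of all 6 mice, which *Gapdh* did not pass, 13 were higher. Among all tested loci, 11.6% were called higher and 7.03% lower. Of the members not called, 8 had an unadjusted p under 0.05. Of these, 4 were lower (*Slc2a1*, *Slc2a3*, *Hk3* and *Pfkfb1*) and 4 were higher (*Slc2a4*, *Hk1*, *Pfkp* and *Tpi1*). The share of all tested loci at that unadjusted threshold is not given here. The median log2 fold change was 0.51 over the members and -0.01 over all tested loci. Of the 14 called members, 10 also had mean FPKM values that differed 2-fold or more. The genotypes did not overlap at 17 members that were higher in TG mice and at 4 that were lower, against 22.8% and 20.1% of all tested loci. The added 1 makes log2 fold changes smaller than the true ratio where FPKM is low. With 3 mice against 3, the two-sided exact permutation test of a gene has 0.1 as its smallest p.

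**Figure D1:**
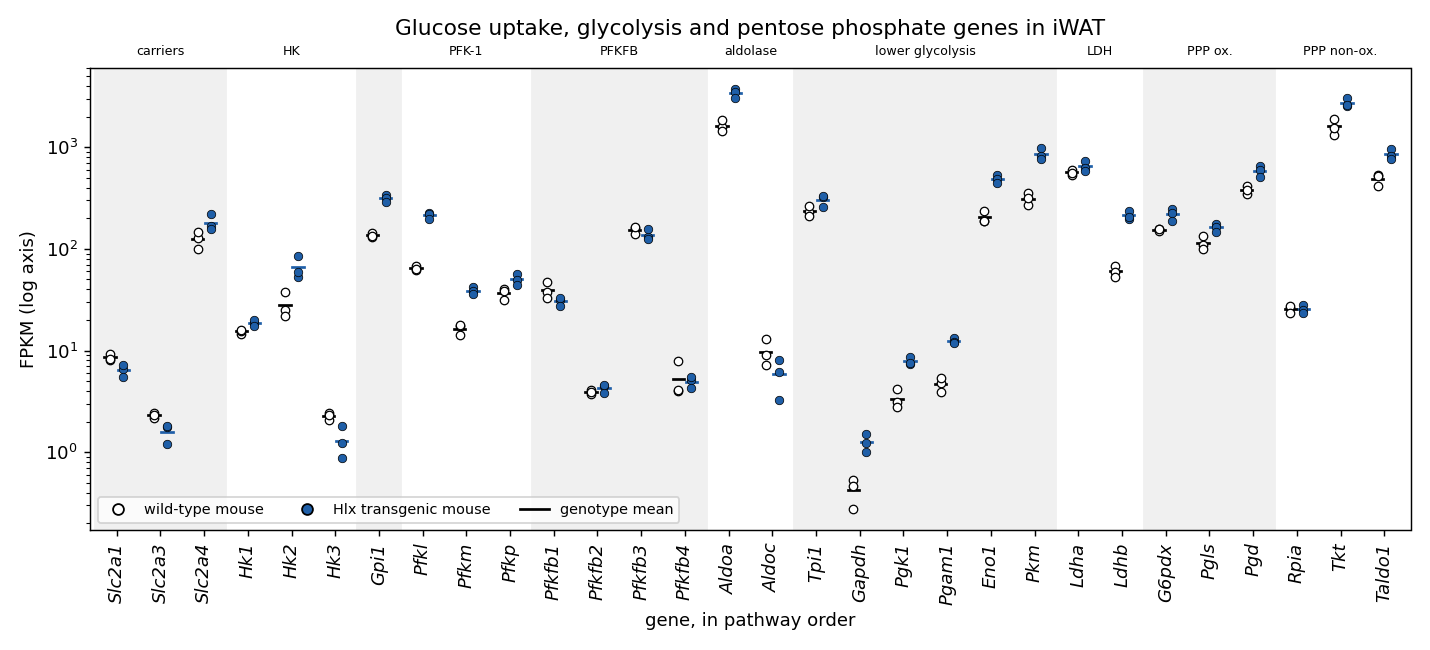
FPKM (log axis) of the 28 members and of the rows of *Pkm2* (shown as *Pkm*) and of *Mir3076* with *Tkt* (shown as *Tkt*) in each mouse, in pathway order, with open points for WT mice, blue points for TG mice and lines for the genotype means (n = 3). The levels run from 0.277 FPKM for *Gapdh* in a WT mouse to 3769 FPKM for *Aldoa* in a TG mouse, and the genotypes stand apart at *Gpi1*, *Pfkl*, *Eno1* and *Ldhb*.

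**Figure D2:**
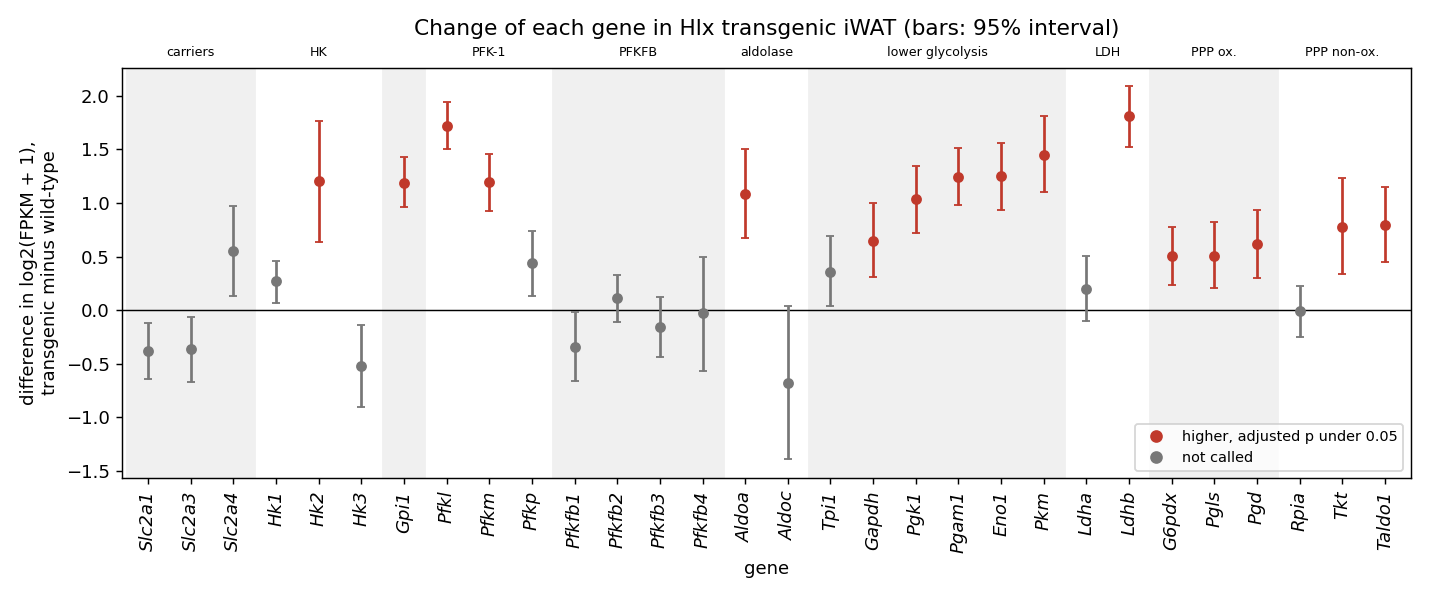
Difference in mean log2(FPKM + 1), TG minus WT, for each gene, with its 95% interval from limma (n = 3 mice per genotype). Red points are called higher, grey points are not called, and *Ldhb* (1.81) and *Pfkl* (1.72) lie highest.

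None of the 3 glucose carriers passed the test in limma, although all 3 had an unadjusted p under 0.05. *Slc2a4* encodes GLUT4, the insulin-responsive carrier, and had the highest level of the 3 in both genotypes. It had 218, 168 and 157 FPKM in the TG mice and 127, 145 and 99.2 FPKM in the WT mice. All TG values lay above all WT values, but the log2 fold change of 0.55 (95% interval 0.13 to 0.97) had an adjusted p of 0.0736 (limma). *Slc2a1*, which encodes the basal carrier GLUT1, had 6.40 ± 0.892 FPKM in TG and 8.59 ± 0.659 FPKM in WT iWAT (SD, n = 3 each), and the log2 fold change was -0.38 (adjusted p = 0.0564). Without TG replicate 2 its adjusted p was 0.042. *Slc2a3*, for the high-affinity carrier GLUT3, was low in both, with 1.59 ± 0.344 and 2.31 ± 0.135 FPKM (log2 fold change -0.36, adjusted p = 0.0927). *Slc2a4* held 95.7% ± 0.826 of the summed FPKM of these 3 carriers in TG and 91.8% ± 1.24 in WT mice (SD, n = 3), and these shares did not overlap. Over all 11 listed rows of the *Slc2a* family, which include the fructose carrier gene *Slc2a5*, its share was 69.5% ± 1.49 in TG and 70.7% ± 4.31 in WT mice, with overlap.

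Among the hexokinases, which phosphorylate glucose, only *Hk2* was called. *Hk2*, on chromosome 6 of mm10 from 82725026 to 82774454, encodes the insulin-regulated hexokinase of muscle and fat. Its level was 85.7, 52.9 and 59.3 FPKM in TG replicates 1, 2 and 3 and 25.3, 37.4 and 21.8 FPKM in the WT mice. The lowest TG mouse stood above the highest WT mouse, and the log2 fold change was 1.21 (adjusted p = 0.0162, standard error 0.24). Without WT replicate 1 or WT replicate 3 the adjusted p was 0.0512 or 0.0554. *Hk1*, the widely expressed form, had 18.7 ± 1.38 FPKM in TG and 15.4 ± 0.724 FPKM in WT mice (log2 fold change 0.27, adjusted p = 0.0636). *Hk3*, a form of myeloid cells, had 1.30 ± 0.463 and 2.26 ± 0.192 FPKM (log2 fold change -0.52, adjusted p = 0.065), and its adjusted p was 0.0264 without TG replicate 2. Macrophage markers were lower in the same mice, as given above. Neutrophil markers summed to 20.3, 52.9 and 20.2 FPKM in the TG mice and 10.9, 20 and 16.9 FPKM in the WT mice. Among them *S100a8* and *S100a9* had log2 fold changes of 1.06 and 1.07, and *Elane* and *Csf3r* of -0.78 and -0.32, with none called. The part of either cell type in the *Hk3* and *Slc2a3* values was not tested. *Hk2* made up 76.1% ± 5.38 of the summed FPKM of these 3 hexokinase genes in TG and 60.7% ± 6.92 in WT mice (SD, n = 3).

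*Gpi1* (chromosome 7, 34201304 to 34230483), whose product turns glucose-6-phosphate into fructose-6-phosphate, had 336, 318 and 286 FPKM in the TG mice and 130, 144 and 135 FPKM in the WT mice. The groups lay far apart compared with their spread (log2 fold change 1.19, adjusted p = 0.000792, standard error 0.10).

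Of the 3 phosphofructokinase-1 genes, *Pfkl* and *Pfkm* were called higher. *Pfkl*, the liver-type subunit, lies on chromosome 10 from 77978634 to 78009796. It had 226, 220 and 197 FPKM in the TG mice against 61.4, 68.5 and 63.5 FPKM in the WT mice. This 3.33-fold ratio of means gave a log2 fold change of 1.72 (adjusted p = 0.000231, standard error 0.09). *Pfkm*, the muscle-type subunit, rose from 17.4, 17.9 and 14.1 FPKM to 42.2, 38.5 and 35.9 FPKM (log2 fold change 1.2, adjusted p = 0.0011). The skeletal muscle marker sum was highest in replicate 2 of each genotype, where *Pfkm* was the highest of the WT but not of the TG values, and the part of muscle RNA in *Pfkm* was not tested. *Pfkp*, the platelet-type subunit, had 56.4, 49.9 and 43.8 FPKM in TG and 31.5, 40.2 and 38.5 FPKM in WT mice. Its groups did not overlap either, but with a log2 fold change of 0.44 (95% interval 0.13 to 0.74) the adjusted p was 0.058. The summed phosphofructokinase-1 level was 303 ± 24.4 FPKM in TG and 118 ± 8.27 FPKM in WT mice (SD, n = 3). *Pfkl* held 70.7% ± 0.966 of it in TG and 54.8% ± 0.791 in WT mice, while the share of *Pfkp* was 16.4% ± 0.819 and 31.2% ± 2.37. The share of *Pfkm* overlapped between genotypes, at 12.8% ± 0.299 and 14.0% ± 1.81.

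None of the 4 genes for the enzymes that make and break fructose-2,6-bisphosphate, an activator of phosphofructokinase-1, was called by limma, and 1 of them (*Pfkfb1*) had an unadjusted p under 0.05. *Pfkfb3*, whose product mainly makes the activator, was the most abundant of them. It had 132, 126 and 157 FPKM in TG and 160, 140 and 164 FPKM in WT mice. The groups overlapped, and the log2 fold change was -0.16 (95% interval -0.44 to 0.12, adjusted p = 0.353). A further row of the same symbol held 1.11 FPKM or less in every mouse. *Pfkfb1* had 30.5 ± 2.67 FPKM in TG and 39.2 ± 6.96 FPKM in WT mice (log2 fold change -0.34, adjusted p = 0.124). *Pfkfb2* had 4.29 ± 0.413 and 3.89 ± 0.172 FPKM, and *Pfkfb4* 4.95 ± 0.621 and 5.3 ± 2.2 FPKM (adjusted p of 0.419 and 0.927). The summed level of the 4 genes was 178 ± 13.8 FPKM in TG and 203 ± 12.7 FPKM in WT mice, with overlap.

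*Aldoa* (chromosome 7, 126793081 to 126810921) encodes the widely expressed aldolase, which splits fructose-1,6-bisphosphate. It was the most abundant member, with 3769, 3471 and 3040 FPKM in the TG mice and 1588, 1853 and 1427 FPKM in the WT mice. By mean FPKM it ranked at place 8 among all 19445 loci in TG and at place 21 in WT iWAT. Its log2 fold change was 1.08 (adjusted p = 0.00821, standard error 0.18). The retrogene *Aldoart1*, which derives from *Aldoa*, is listed at 107 ± 13.7 FPKM in TG and 49.1 ± 8.18 FPKM in WT mice (SD, n = 3), and reads of such near copies may be split between the loci. *Aldoc*, the brain-type aldolase, was low, with 3.29, 6.08 and 8.09 FPKM in TG and 13.0, 8.94 and 7.13 FPKM in WT mice. The groups overlapped (log2 fold change -0.68, 95% interval -1.39 to 0.04, adjusted p = 0.156).

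In lower glycolysis, 4 of the 5 members were called higher. *Eno1* (chromosome 4, 150237196 to 150248873), for enolase, had 530, 484 and 443 FPKM in TG and 187, 237 and 190 FPKM in WT mice (log2 fold change 1.25, adjusted p = 0.00175, standard error 0.13). *Pgam1*, for phosphoglycerate mutase, had 13.3, 12.0 and 11.9 FPKM against 4.78, 3.92 and 5.40 FPKM (log2 fold change 1.24, adjusted p = 0.00104). The groups were well apart at both genes. *Pgk1*, for phosphoglycerate kinase, had 8.73, 7.45 and 7.48 FPKM against 3.11, 4.18 and 2.81 FPKM (log2 fold change 1.04, adjusted p = 0.00344). *Gapdh*, for glyceraldehyde-3-phosphate dehydrogenase, had 1.52, 1.01 and 1.22 FPKM in TG and 0.277, 0.535 and 0.469 FPKM in WT mice (log2 fold change 0.65, adjusted p = 0.0251). *Gapdh* was the 1 member that passed the filter on low values only through its TG mean, so that only a higher TG value could bring it into the test. Its adjusted p rose to 0.065, 0.074, 0.0692, 0.0533 and 0.0682 without TG replicate 1, TG replicate 3 and WT replicates 1, 2 and 3. *Tpi1*, for triosephosphate isomerase, had 322, 328 and 259 FPKM in TG and 232, 264 and 209 FPKM in WT mice. Here the groups overlapped, and the log2 fold change was 0.36 (95% interval 0.04 to 0.69, adjusted p = 0.106). The row of *Pkm2* (chromosome 9, 59656367 to 59679375), for pyruvate kinase, had 984, 825 and 759 FPKM in TG and 269, 353 and 313 FPKM in WT mice. This was a log2 fold change of 1.45 (adjusted p = 0.00171, standard error 0.15). FPKM here is a gene total and does not part the M1 and M2 splice forms of pyruvate kinase.

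The levels of *Gapdh*, *Pgk1* and *Pgam1* stood far below those of the enzymes around them in the pathway. In WT mice their mean FPKM was 0.427, 3.36 and 4.70, where *Tpi1* had 235, *Eno1* 205 and *Aldoa* 1622. Many of these genes have near-identical copies elsewhere in the genome. Windows of 100 bases, the read length before a sample barcode was removed, were taken every 5 bases along the longest GENCODE M21 coding transcript of each gene and were looked for in transcripts of other loci with at most 2 mismatches. For *Gapdh*, 80.4% of the windows were found at other loci, among 147 other genes, of which 141 are annotated as pseudogenes. The share was 66.8% for *Pgk1* and 39.9% for *Pgam1*, but also 85.0% for *Eno1*, 50.6% for *Ldhb*, 50.5% for *Pkm*, 40.8% for *Gpi1* and 28.2% for *Ldha*. For *Tpi1*, *Taldo1*, *Aldoa* and *G6pdx* it was 14.9%, 12.6%, 5.17% and 4.89%, and it was 0% for the other members, including *Pfkl*, *Pfkm* and *Hk2*. How the authors' counting treated reads with several matches is not given in the sources used here, and its part in the low levels was not tested. The levels of the members with shared windows are therefore uncertain, and so are their ratios between genotypes. The called members among them are *Gpi1*, *Aldoa*, *Gapdh*, *Pgk1*, *Pgam1*, *Eno1*, *Ldhb*, *G6pdx* and *Taldo1*.

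Lactate dehydrogenase is built from the A subunit of *Ldha* and the B subunit of *Ldhb*, the latter typical of tissues that burn lactate. *Ldhb* (chromosome 6, 142490207 to 142508113) had 236, 197 and 207 FPKM in the TG mice and 68.3, 59.5 and 53.3 FPKM in the WT mice. All TG values were far above all WT values, and the log2 fold change of 1.81 (adjusted p = 0.000418, standard error 0.12) was the largest of the 28 members. *Ldha* had 738, 628 and 588 FPKM in TG and 534, 600 and 556 FPKM in WT mice. The groups overlapped, the log2 fold change was 0.20 (95% interval -0.10 to 0.51, adjusted p = 0.289), and its sign turned to -0.14 under quantile normalization. *Ldhb* made up 24.2%, 23.8% and 26.1% of the summed FPKM of both genes in the TG mice and 11.3%, 9.01% and 8.74% in the WT mice. *Ldha* had the higher FPKM of the 2 in every mouse. Both genes share windows with other loci, as given above, so these shares are uncertain.

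**Figure D3:**
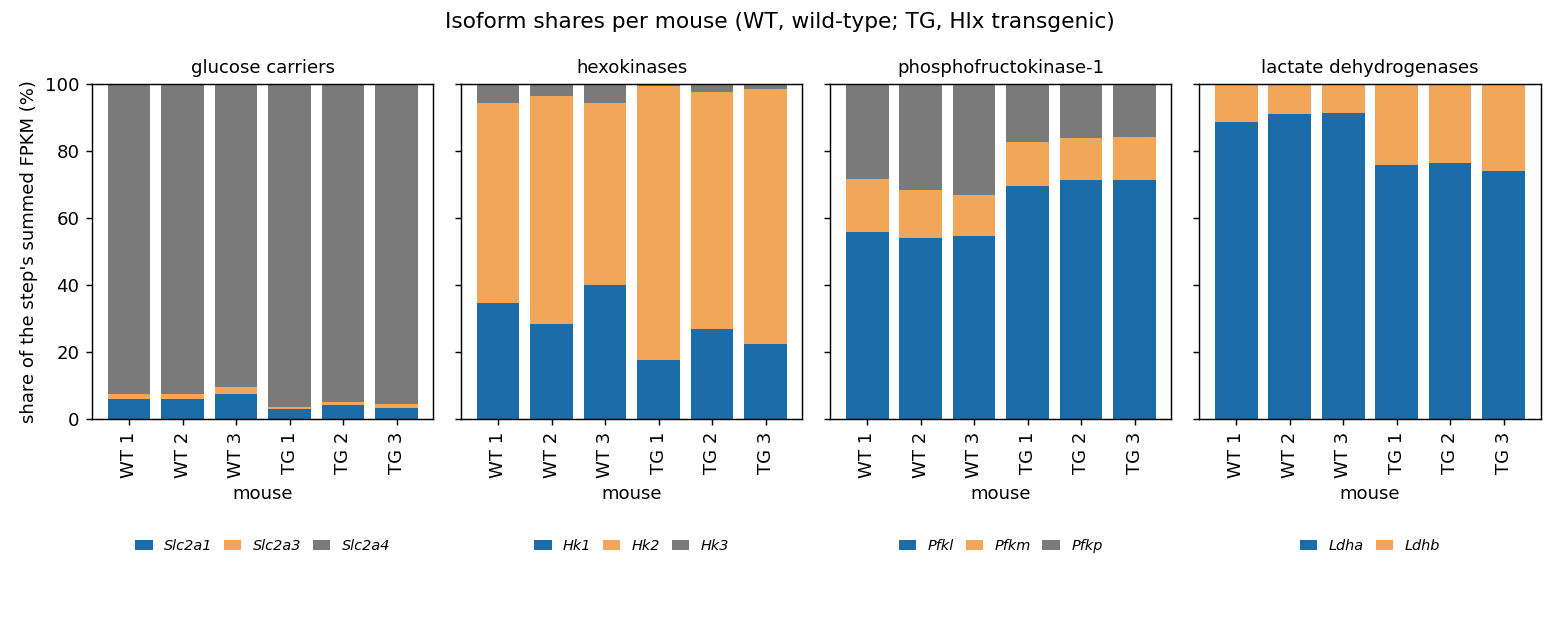
Share of each gene in the summed FPKM (%) of its step, for each mouse (WT 1 to 3 and TG 1 to 3), for the listed members among the glucose carriers (3 genes), hexokinases (3), phosphofructokinase-1 genes (3) and lactate dehydrogenases (2). The *Pfkl* share was 54.1% to 55.7% in WT and 69.6% to 71.4% in TG mice, and the *Ldhb* share 8.74% to 11.3% and 23.8% to 26.1%.

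The stretch of 250 bases before the RefSeq start (build GRCm38.p6) is shown for *Hk2* and *Pfkl*, which were called higher, and for *Ldha*, which was not. Capitals mark each match, on either strand, to the letters ACGTG. This is a form of RCGTG (R is A or G), the core of the sites that hypoxia-inducible factors bind. The form GCGTG was not counted or marked.
Hk2, chr6:82774455-82774704, minus strand: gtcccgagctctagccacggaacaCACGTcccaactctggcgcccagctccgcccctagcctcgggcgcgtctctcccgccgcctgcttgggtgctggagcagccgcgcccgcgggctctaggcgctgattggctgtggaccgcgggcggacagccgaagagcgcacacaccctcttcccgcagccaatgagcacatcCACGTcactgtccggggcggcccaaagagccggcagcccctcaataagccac
Pfkl, chr10:78009808-78010057, minus strand: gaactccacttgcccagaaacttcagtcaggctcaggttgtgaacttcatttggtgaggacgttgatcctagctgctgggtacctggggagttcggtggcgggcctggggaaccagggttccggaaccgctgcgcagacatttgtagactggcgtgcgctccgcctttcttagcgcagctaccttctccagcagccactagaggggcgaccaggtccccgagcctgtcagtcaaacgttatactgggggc
Ldha, chr7:46845554-46845803, plus strand: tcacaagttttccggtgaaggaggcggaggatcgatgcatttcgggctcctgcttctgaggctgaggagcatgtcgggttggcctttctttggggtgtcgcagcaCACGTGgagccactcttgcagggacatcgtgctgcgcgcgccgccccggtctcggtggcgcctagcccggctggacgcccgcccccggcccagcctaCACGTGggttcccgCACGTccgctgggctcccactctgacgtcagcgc

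The *Ldha* stretch held 5 matches, 4 of them within 2 copies of CACGTG, the E-box that the glucose-sensing factor ChREBP and MYC recognise, which contains ACGTG on both strands. The *Hk2* stretch held 2 matches to ACGTG and the *Pfkl* stretch 0, although the *Pfkl* stretch holds the letters GCGTG. Across genes, 28 of the 30 listed genes were matched to a RefSeq promoter by symbol, with the start nearest to the edge of the deposited locus taken where there were several. ACGTG was found before 8 of these 28 (28.6%), against 16.6% of all 32851 promoters. It was there for 4 of the 16 genes whose row was called higher and for 4 of the 12 others. CACGTG was found before 2 of the 28, *Pfkm* and *Ldha*, against 6.02% of all promoters. TAAT, the core letters of homeodomain sites, the class of factor to which Hlx belongs, was found before 8 of the 28 (28.6%), against 54.9% of all promoters, and before 3 of the 16 called genes. A match describes these letters only.

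The 3 genes of the oxidative pentose phosphate branch, which yields NADPH, were all called higher, with log2 fold changes from 0.51 to 0.62. *G6pdx*, for the rate-limiting glucose-6-phosphate dehydrogenase, had 247, 227 and 190 FPKM in TG and 157, 151 and 156 FPKM in WT mice (log2 fold change 0.51, adjusted p = 0.0249, standard error 0.11). *Pgls*, for 6-phosphogluconolactonase, had 176, 164 and 148 FPKM against 133, 109 and 100 FPKM (log2 fold change 0.51, adjusted p = 0.0342). *Pgd*, for 6-phosphogluconate dehydrogenase, had 657, 600 and 508 FPKM against 346, 417 and 381 FPKM (log2 fold change 0.62, adjusted p = 0.0234). No TG value of the 3 genes lay below a WT value. These calls were lost without certain mice. *G6pdx* had adjusted p of 0.0592 and 0.0558 without TG replicate 1 and 2 and of 0.0587, 0.0788 and 0.0743 without WT replicate 1, 2 and 3. *Pgls* had 0.0919, 0.0696 and 0.0613 without TG replicate 1, 2 and 3 and 0.0991 and 0.105 without WT replicate 2 and 3. *Pgd* had 0.0616 and 0.052 without TG replicate 1 and 2 and 0.0655 and 0.0737 without WT replicate 1 and 3. With quantile normalization the log2 fold changes of *G6pdx* and *Pgd* were 0.22 and 0.19 (adjusted p of 0.126 and 0.314).

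In the non-oxidative branch, which exchanges sugars with glycolysis, *Taldo1* (chromosome 7, 141392159 to 141402976), for transaldolase, had 955, 822 and 774 FPKM in TG and 531, 520 and 417 FPKM in WT mice. The groups did not overlap (log2 fold change 0.80, adjusted p = 0.0123, standard error 0.15). *Rpia*, for ribose-5-phosphate isomerase, had 25.6 ± 2.47 FPKM in TG and 25.7 ± 2.24 FPKM in WT mice (SD, n = 3), with a log2 fold change of -0.01 (95% interval -0.25 to 0.23). The row that *Tkt*, for transketolase, shares with *Mir3076* (chromosome 14, 30548288 to 30577044) had 3055, 2543 and 2602 FPKM in TG and 1330, 1915 and 1558 FPKM in WT mice. It ranked at place 11 of all loci in TG and 22 in WT iWAT, with a log2 fold change of 0.78 (adjusted p = 0.0304). That adjusted p was 0.0819, 0.0795, 0.0757 and 0.0955 without TG replicate 1, TG replicate 3, WT replicate 1 and WT replicate 3.

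Summed over the listed genes of each step, with the rows of *Pkm2* and *Tkt* included, FPKM in TG mice was 2.58 times that in WT mice for phosphofructokinase-1. The ratio was 2.30 for phosphoglucose isomerase, 2.19 for lower glycolysis, 2.1 for the aldolases and 1.88 for the hexokinases. It was 1.71 and 1.5 for the non-oxidative and oxidative pentose phosphate genes, 1.40 for the carriers and 1.39 for lactate dehydrogenase. The step sums of the 2 genotypes did not overlap except for the fructose-2,6-bisphosphate enzymes, with a ratio of 0.878. These ratios are descriptions of the sums, with no test. Of the lower glycolysis sum of 1667 FPKM in TG mice, *Pkm2*, *Eno1* and *Tpi1* held 856, 486 and 303 FPKM, so *Gapdh*, *Pgk1* and *Pgam1* hardly enter it.

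The TG mice differed among themselves. TG replicate 1 had the highest of the TG values at 18 of the 28 members, against 43.2% of all tested loci. It was also the highest at all 14 called members, for which the share among all loci called higher is not given here. TG replicate 3 had the lowest at 19 members, against 31.8% of all tested loci. Among the WT mice, replicate 2 was the highest at 17 members, against 27.8% of all tested loci. TG replicate 1 also had the highest sum of adipocyte markers (33640 FPKM, against 30105 and 28295 FPKM in TG replicates 2 and 3). Most of that sum was *Fabp4*, with 29363, 25850 and 24561 FPKM in TG replicates 1, 2 and 3. *Plin1*, *Lep*, *Lipe* and *Pparg* were also highest in TG replicate 1, but *Adipoq* and *Cidec* in TG replicate 2. The sum of brown or beige markers was highest in TG replicate 1 as well (7930 FPKM, against 6386 and 6127 FPKM). *Ucp1*, *Cidea*, *Cox7a1*, *Cox8b* and *Ppargc1a* were each highest there. *Elovl3* (16.4, 43.1 and 19.7 FPKM in TG replicates 1, 2 and 3) and *Dio2* (0.521, 3.22 and 1.33 FPKM) were lowest there. The part of these differences in the members' order was not tested.

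Of 53 further genes of sugar metabolism, 36 were tested, 7 (19.4%) were called higher and 1 (2.78%) lower, against 11.6% and 7.03% of all tested loci, and the median of their log2 fold changes was 0.03. Another 15 were at or under 1 FPKM on average in both genotypes, among them the liver and pancreas carrier *Slc2a2* and the liver pyruvate kinase *Pklr*. *Tigar* and *Galt* have no row of their own name.

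*Fbp2*, for the muscle-type fructose-1,6-bisphosphatase that runs the phosphofructokinase step backwards, had 14.6, 12.1 and 12.4 FPKM in TG and 0.949, 1.31 and 1.07 FPKM in WT mice. With an 11.7-fold ratio of means and a log2 fold change of 2.73 (adjusted p = 0.000113, standard error 0.11), it had the largest rise of this list. *Slc16a1*, for the lactate carrier MCT1, had 51.1, 34.8 and 35.8 FPKM against 10.8, 13.1 and 10.6 FPKM (log2 fold change 1.72, adjusted p = 0.00112). *Ldhd*, for the mitochondrial D-lactate dehydrogenase, had 93.1, 70.0 and 74.0 FPKM against 31.9, 22.8 and 25.0 FPKM (log2 fold change 1.54, adjusted p = 0.00154). The groups were apart at each of these genes. *Bsg*, for the chaperone of the lactate carriers, had 324 ± 18.4 FPKM in TG and 258 ± 28 FPKM in WT mice and was not called (log2 fold change 0.33, adjusted p = 0.0843).

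The fructose carrier gene *Slc2a5* had 82.6, 48.0 and 46.3 FPKM in TG and 15, 30.5 and 21.5 FPKM in WT mice (log2 fold change 1.36, adjusted p = 0.023). Its adjusted p was 0.0503, 0.0549 and 0.0726 without TG replicate 1, WT replicate 1 and WT replicate 3. *Slc2a13*, for a carrier of myo-inositol, was the 1 gene of the list called lower, with 0.322, 0.296 and 0.207 FPKM in TG and 2.89, 3.44 and 3.24 FPKM in WT mice (log2 fold change -1.72, adjusted p = 0.000418). It passed the filter only through its WT mean.

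*Mlxipl*, for the glucose-sensing transcription factor ChREBP, had 134, 89.2 and 90.8 FPKM in TG and 57.1, 61.1 and 69.8 FPKM in WT mice (log2 fold change 0.71, adjusted p = 0.031). Its adjusted p was 0.055, 0.0842, 0.0844 and 0.0594 without TG replicate 3 and WT replicates 1, 2 and 3. *Galm*, for galactose mutarotase, had 37.4 ± 3.92 and 27.8 ± 0.390 FPKM (log2 fold change 0.41, adjusted p = 0.0229), and its adjusted p was 0.0632, 0.0597, 0.0656 and 0.0742 without the same mice. *Txnip*, for a protein that restrains glucose uptake, had 587 ± 164 FPKM in TG and 595 ± 64.4 FPKM in WT mice and was not called (log2 fold change -0.06, 95% interval -0.58 to 0.47). Also not called were *H6pd*, the glucose-6-phosphate dehydrogenase of the endoplasmic reticulum (log2 fold change 0.00, 95% interval -0.19 to 0.20), the phosphoglucomutase gene *Pgm2* (-0.15, -0.48 to 0.18) and the glucose-6-phosphatase gene *G6pc3* (0.39, 0.07 to 0.71).

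The muscle isoforms *Pgam2* and *Eno3*, were chosen for mention after their values were seen. *Pgam2* had 2.58, 21 and 4.40 FPKM in TG and 0.156, 3.65 and 1.11 FPKM in WT mice, and *Eno3* 10.4, 26.8 and 10.6 FPKM against 6.71, 12.5 and 9.17 FPKM. Both were highest in TG replicate 2, where the muscle marker sum was also highest, and neither was called (adjusted p of 0.141 and 0.286).

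**Figure D4:**
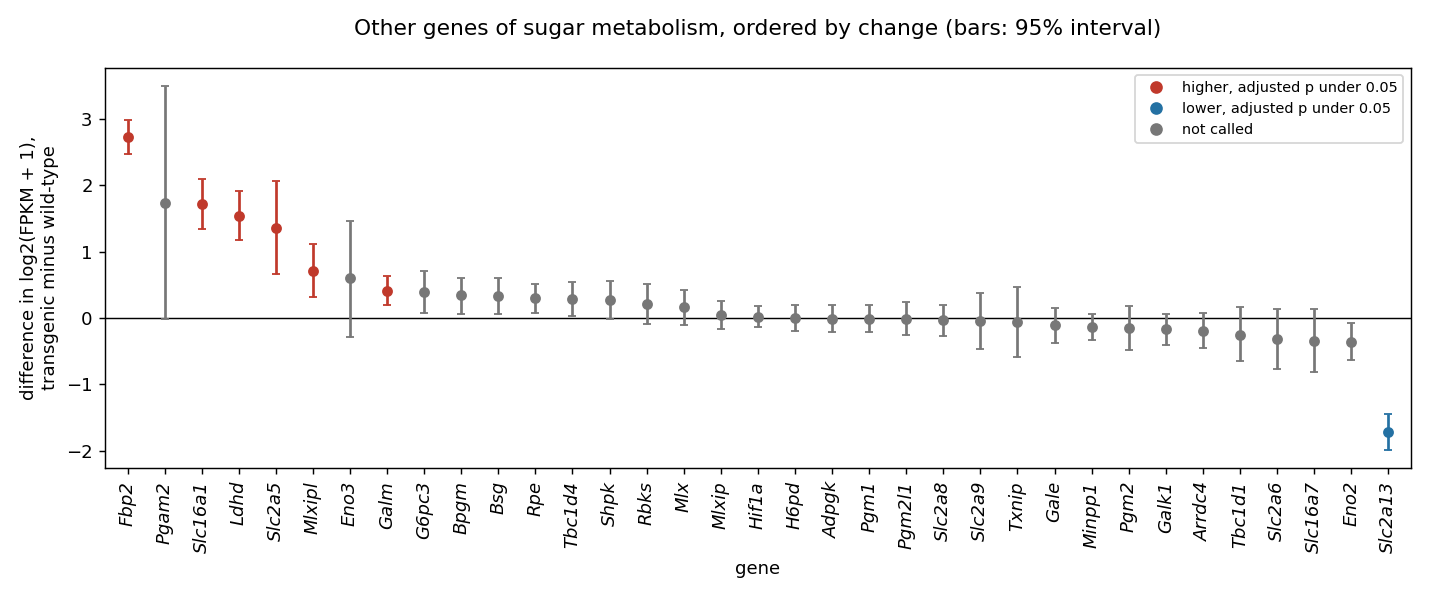
Difference in mean log2(FPKM + 1), TG minus WT, for the tested genes of sugar metabolism outside the 30, of which 1 is not drawn, with 95% intervals from limma (n = 3 mice per genotype). Red points are called higher, the blue point is called lower and grey points are not called. *Fbp2* (2.73) lies at the left end and *Slc2a13* (-1.72) at the right.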

How the data were processed

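RNA-Seq was done on iWAT of 3 TG and 3 WT mice. Per the methods and the submitters' processing notes, the authors read 100 bases from 1 end of TruSeq fragments, aligned to mm10 using TopHat2 2.0.9 with Bowtie2 2.1.0 and estimated gene levels using Cufflinks 2.2.1. The authors deposited FPKM per gene and mouse, which were used as they are. Options and annotation are not given in the sources used here.

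Genes were matched by symbol, and where a symbol has several rows (409 symbols) the row with the highest mean FPKM was taken. Loci whose mean in either genotype exceeded 1 FPKM were tested on log2(FPKM + 1) with limma 3.58.1 in R 4.3.3 (eBayes with trend, no covariates). Two-sided p-values were adjusted by Benjamini-Hochberg over all tested loci. The code was tested on simulated data. Shares and step sums were computed from FPKM without a test. Promoters came from RefSeq and transcripts from GENCODE M21. Coordinates are those of the deposited loci. Figures were drawn with matplotlib 3.10.9.

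The members and gene lists were chosen with earlier results of these data known. Values in every mouse are given for called genes and for members with a mean FPKM over 50. Of the further genes, those called and the 5 uncalled ones with the highest mean were named, except 1 called gene that is counted but not reported here. Replicates are separate mice, and p-values measure the spread between them. The alternatives tried were another pseudocount, other filters, sample weights, eBayes without trend, scaling by quantiles or by median ratios, a replicate block, each mouse left out, a stricter call and summed rows. Counting the rows of *Pkm2* and *Tkt* and summing all *Slc2a* rows were added after seeing the data.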

Additional observations from a re-analysis of the deposited data

How the results depend on the processing

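Each of 16 alternatives was applied to the called members and the rows of *Pkm2* and *Tkt*, where it could be. Of these 16 genes, 8 kept their call in every alternative, namely *Gpi1*, *Pfkl*, *Pfkm*, *Pgk1*, *Pgam1*, *Eno1*, *Pkm2* and *Ldhb*. The 14 members called higher became 8 with no filter on low values, where more loci enter both the limma fit and the adjustment. They became 8 at an adjusted p under 0.01 and 9 to 12 with a mouse left out, lowest without WT replicate 3. For the further genes the 7 higher became 3, 3 and 4 to 9, with 4 without WT replicate 3. No member was called lower in the main test, against 2 (*Slc2a1* and *Hk3*) with sample quality weights or without TG replicate 2, with a range of 0 to 2 over the mice left out. The further genes called lower became 2 with no filter and with sample quality weights, and 1 to 2 with a mouse left out, with 2 without TG replicate 1. The members' median log2 fold change was 0.29 with quantile normalization and 0.42 to 0.60 with a mouse left out. The cause of these differences was not tested. *Aldoa* lost its call with no filter (adjusted p = 0.238, over a range from 0.00311). The sign turned for *Ldha* (-0.14) and *Txnip* (0.16, with sample quality weights), neither of them called. With a mouse left out, *Pfkfb4* ranged from -0.17 to 0.24, *Rpia* from -0.08 to 0.06 and *Txnip* from -0.23 to 0.19. *H6pd*, at 0.00, was -0.09 with quantile normalization. The *Slc2a4* share, 3.92 percentage points higher in TG mice among 3 carriers, differed by -1.18 points over all listed *Slc2a* rows. With *Pkm2* and *Tkt* counted, 16 were higher, 0 lower and the median was 0.53.

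The replicate numbers name different animals, and the labels do not say whether same-numbered mice shared a litter or a batch. Same-numbered mice had correlations of their deviations of 0.0129, 0.0344 and 0.0701, and differently numbered mice between -0.186 and 0.135. Such correlations over all loci cannot decide whether the samples were paired. With the replicate number as a block, 13 members were higher and 0 lower, and 7 further genes were higher and 1 lower. *Gapdh*, *Tkt*, *Slc2a5* and *Mlxipl* had adjusted p of 0.0705, 0.0585, 0.0638 and 0.0629 with it, and *G6pc3* and *Pgam2* 0.035 and 0.0111. The absolute depth is unknown and low FPKM values are the least precise.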
